A study of Mus musculus with 8 samples.

Results

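RNA polymerase II (Pol II) was mapped by chromatin immunoprecipitation and sequencing (ChIP-seq) in mouse bone marrow-derived macrophages at 2 h and at 4 h after stimulation, and the positions listed at these 2 times are compared here. The members are all positions of the 2 h list (57200) and of the 4 h list (57513), together 114713 of the 364537 positions and clusters in the 8 lists of the series. Every position was given 250 bp to each side, positions of the 2 times whose windows overlapped were paired, and their heights were compared as percentile ranks within their own lists. The macrophages were phagocytes grown in culture from marrow precursors, and the donor mice were Fvb females of 6 to 8 weeks. Those of the 2 h and 4 h groups had received lipopolysaccharide, a component of the bacterial cell wall, together with interferon gamma, a cytokine of T cells and natural killer cells. Untreated macrophages (0 h), the same antibody in cells without either agent, serve here as a reference list. Each group was 1 library, and how many animals or cultures stood behind a library is not given in the sources used here.

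Pol II transcribes protein-coding genes. It often pauses just after a gene's start, where nucleosomes carry trimethylated lysine 4 of histone H3 (H3K4me3), and it spreads over the gene body while it elongates. Lipopolysaccharide acts through Toll-like receptor signalling, and interferon gamma through a receptor of its own. The genes that respond to both in macrophages are known to come on in waves, some within the first hours and some only after new protein has been made. H3K27me3 is the mark of Polycomb repression, and Jmjd3 is a demethylase that removes it and is itself induced by such stimuli.

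Each time was 1 library, so differences between 2 and 4 h are descriptions of these libraries, without replicates and without a p-value. The only value that the authors deposited for a position is its maximum overlap count, called its height here, which is not scaled to depth. Heights ran from 10 to 402 at 2 h, with a median of 17, and from 11 to 401 at 4 h, with a median of 19; in untreated cells they ran from 9 to 351 with a median of 14. A percentile rank of 0 is the bottom and 100 the top of a list, and equal heights share their middle rank. Near the bottom 1 count moved a position far: at 2 h a height of 11 had rank 16.3 and a height of 12 rank 24.6, whereas heights of 39 and 40 had ranks 75.8 and 76.3. Bracketed ranges after shares are 95% Clopper-Pearson limits, except where a Wald interval is named. Both cover counting error only, and neighbouring positions are not independent, so the true uncertainty is wider. All coordinates are on mm8. Genes are not named, since gene annotation on that build is not analysed here.

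Most Pol II positions listed at 1 time had a counterpart at the other. Of the 2 h positions 38454 (67.2%, 66.8 to 67.6) were paired with a 4 h position, which is 66.9% (66.5 to 67.3) of the 4 h list. The paired positions lay a median of 47 bp apart, with quartiles of 16 and 123 bp. Their 2 ranks went together, with a Spearman's rho of 0.82 across the 38454 pairs, given as a description because neighbouring pairs share a library and often a gene. The difference in rank, 4 h minus 2 h, had a median of -0.60 points and quartiles of -9.58 and 7.09 points.

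A pair is called sustained where its ranks were under 20 points apart, early where it ranked at least 20 points higher at 2 h, and late where it ranked at least 20 points higher at 4 h. By this rule 29492 pairs (76.7% of all pairs) were sustained, 4754 (12.4%) early and 4208 (10.9%) late. The pairs just inside the early limit had a difference of -20.03 points and those just outside it one of -19.93, against 20.04 and 19.98 at the late limit. Early pairs had a median height of 21 at 2 h and 13 at 4 h, and late pairs 12 at 2 h and 23 at 4 h. Sustained pairs stood at 31 and 32. Whether early or late pairs were more numerous depended on the settings. With both lists limited to heights of 11 and above, there were 3201 early and 4999 late pairs, so that early pairs went from 53.05% to 39.04% of the called pairs. With ranks taken among paired positions only there were 4168 early and 4234 late pairs.

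**Figure D1:**
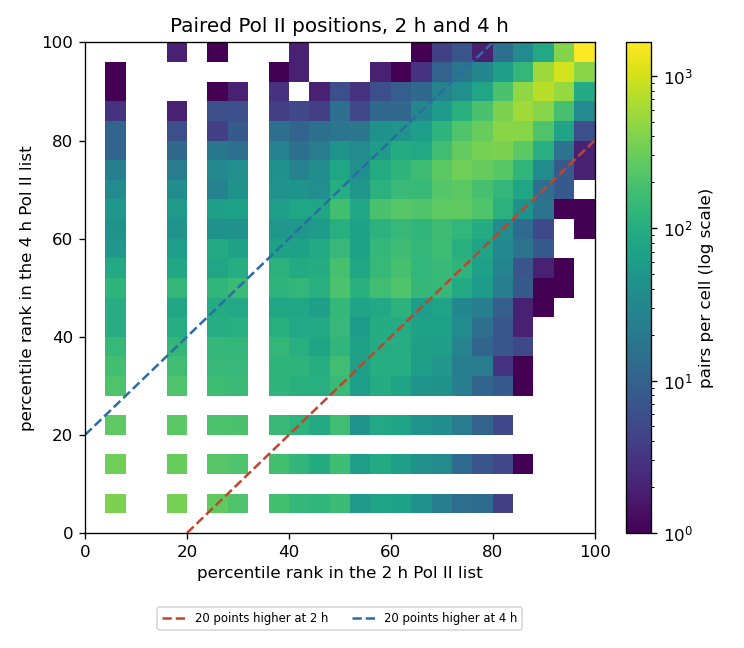
Percentile rank in the 2 h list (horizontal) and in the 4 h list (vertical) of the 38454 paired Pol II positions, as pairs per cell on a logarithmic colour scale, with dashed lines at a difference of 20 points. The pairs gather along the diagonal towards rank 100, and the cells beyond the dashed lines are filled mostly where at least 1 rank is low; empty stripes are ranks that no height has.

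Early and late calls were most frequent among pairs of low to middle rank, in part by the rule. Among the pairs of mean rank 24.0 to 33.9, 30.7% were early and 25.5% late, and among those of mean rank 85.7 to 92.7 3 were early and 7 late of 3844. The rank scale ends at 100, so that a pair of mean rank above 90 cannot reach a difference of 20 points. The 3846 pairs of mean rank 92.7 and above could differ by at most 14.6 points and had to be sustained. Since few counts decide a low rank, a second group is followed through the text. These are the 15710 pairs with at least 1 position at rank 75 or above, which corresponds to a height of at least 38 at 2 h or 39 at 4 h, called tall pairs. Of the tall pairs 14425 (91.8%, 91.4 to 92.2) were sustained, 586 (3.73%) early and 699 (4.45%) late. Tall early pairs had a median height of 48 at 2 h and 20 at 4 h, and tall late pairs 17 at 2 h and 49 at 4 h. When the counting interval of each height was turned into ranks of its own list, the intervals of the 2 times lay apart in 517 of the tall early and 625 of the tall late pairs, but only in 733 of all early and 765 of all late pairs. They also lay apart in 2296 of the 14425 tall sustained pairs. Sustained therefore means ranks under 20 points apart, and not ranks equal within counting error.

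**Figure D2:**
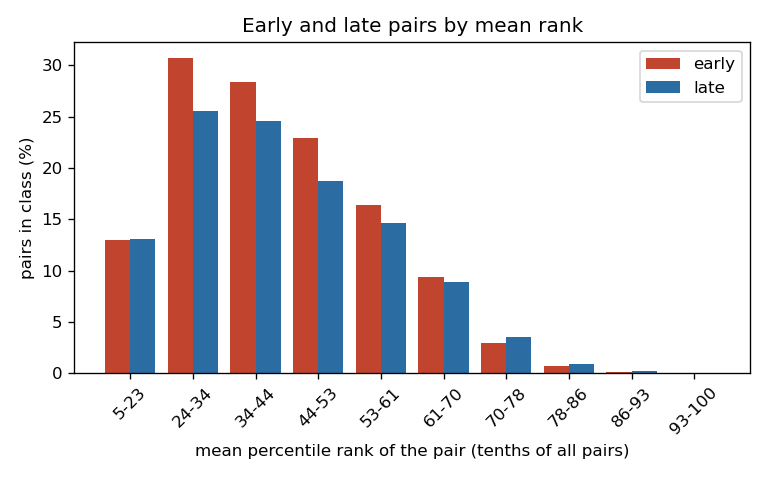
Share of pairs (%) that were early or late, by mean percentile rank of the pair in 10 groups of about equal size. Both shares are highest in the second group, at 30.7% early and 25.5% late; the last, from mean rank 92.7, allows a difference of at most 14.6 points and so holds no call.

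The few pairs taken from the very top of both lists carried Jmjd3 and H3K4me3. The 10 pairs with the highest mean rank, which that choice makes sustained, lay in 7 loci, with heights of 373 to 402 at 2 h and 366 to 401 at 4 h. All 10 overlapped a Jmjd3 peak and an H3K4me3 cluster at 4 h, and 9 overlapped Pol II in untreated cells. Over all 38454 pairs the shares were 8.64% for Jmjd3, 45.6% for H3K4me3 at 4 h and 63.0% for Pol II at 0 h. Among the 14425 tall sustained pairs they were 19.9%, 79.1% and 84.7%. No share at the rank of these 10 is given here. The pair at positions 101933633 (2 h) and 101933637 (4 h) on chromosome 14 had heights of 118, 398 and 401 at 0, 2 and 4 h. On chromosome 5, positions 143171718 and 143171685 had heights of 321, 398 and 401 in the same order. On chromosome 14 a neighbouring pair at 101941312 and 101941414 had 24 in untreated cells, 400 at 2 h and 375 at 4 h. The exception without Pol II at 0 h was the pair at 83346578 and 83346597 on chromosome 11, with heights of 387 at 2 h and 374 at 4 h. In untreated cells the 9 listed pairs had ranks from 75.1 to 100.

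Chosen in the same way, by the largest difference, the strongest early pairs were tall at 2 h and at the bottom of the 4 h list. The 10 tall pairs with the largest difference lay in 9 loci and had heights of 45 to 57 at 2 h, and each had a height of 11 at 4 h, the lowest in that list. The first, at 192798612 and 192798659 on chromosome 1, had a height of 57 at 2 h (rank 82.3) and 11 at 4 h (rank 5.11), lay in an H3K4me3 cluster and overlapped Jmjd3, and no Pol II position of untreated cells overlapped it. On chromosome 2 the pair at 164212197 and 164212225 had heights of 54 and 11, also in an H3K4me3 cluster and with none at 0 h. On chromosome 4 the pair at 134539380 and 134539413 was listed at all 3 times, with heights of 13, 50 and 11. Of these 10 pairs 2 were listed in untreated cells, 6 lay at an H3K4me3 cluster of 4 h and 2 overlapped Jmjd3. Over all 586 tall early pairs the shares were 58.7%, 63.3% and 12.1% in the same order.

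Chosen for the largest differences, the strongest late pairs were at or near the bottom of the 2 h list. Most had been listed before stimulation, as had most tall late pairs. The 10 with the largest difference lay in 9 loci, with heights of 10 or 11 at 2 h and of 58 to 355 at 4 h. The first, at 72088099 and 72088076 on chromosome 6, had heights of 27, 10 and 101 at the 3 times. The second, at 116680144 and 116680260 on chromosome 10, had heights of 259, 11 and 355, so that it ranked near the top in untreated cells and at 4 h and at rank 16.3 at 2 h. At 122548789 and 122549254 on chromosome 6 the heights were 90, 10 and 80. Of these 10 pairs 8 were listed at 0 h and 2 lay at an H3K4me3 cluster of 4 h. Over all 699 tall late pairs the shares were 72.5% and 32.5%, and over tall sustained pairs 84.7% and 79.1%. No Jmjd3 peak and no H3K27me3 peak of either time overlapped any of the 10. Over all tall late pairs the shares were 1.57% for Jmjd3 and 2.00% and 2.29% for H3K27me3 at 0 and 4 h. None in 10 therefore does not set these apart.

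The lists of the other antibodies, which played no part in defining the classes, differed between early and late pairs. Early pairs lay at H3K4me3 clusters, Jmjd3 peaks and H3K27me3 peaks more often than late pairs did, and late pairs more often had a Pol II position in untreated cells. Among tall pairs, an H3K4me3 cluster of 4 h was at 371 of 586 early pairs (63.3%, 59.3 to 67.2) and at 227 of 699 late pairs (32.5%, 29.0 to 36.1). Sustained tall pairs were above both, at 79.1% (78.5 to 79.8), without matching for rank. With early pairs weighted to the mean ranks of the late pairs, the difference, late minus early, was -30.1 percentage points (95% Wald interval -35.4 to -24.8). With H3K4me3 of untreated cells it was -25.5 points (-30.9 to -20.2).

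Jmjd3, which was mapped at 2 h only, overlapped 71 of the 586 tall early pairs (12.1%, 9.59 to 15.0), 11 of the 699 tall late pairs (1.57%, 0.788 to 2.80) and 19.9% (19.3 to 20.6) of the sustained ones. The matched difference was -10.6 points (-13.4 to -7.75). Since Jmjd3 has no 4 h library, whether late pairs carried it at 4 h was not measured. H3K27me3 of 4 h was at 46 tall early pairs (7.85%, 5.80 to 10.3) and at 16 late ones (2.29%, 1.31 to 3.69), a matched difference of -5.29 points (-7.73 to -2.86). Sustained tall pairs lay between them at 4.28% (3.96 to 4.63). Of the tall early pairs 40 (6.83%, 4.92 to 9.18) had both H3K4me3 and H3K27me3 at 4 h, against 6 late ones (0.858%, 0.316 to 1.86) and 3.40% (3.11 to 3.71) of the sustained.

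**Figure D3:**
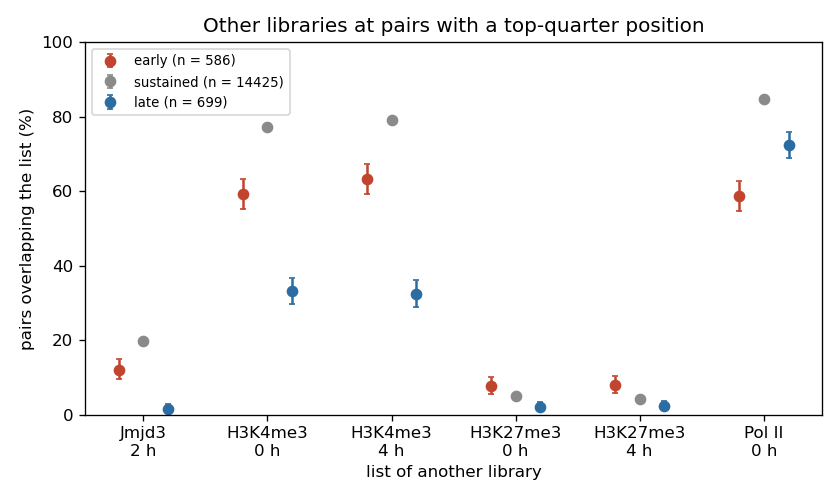
Share (%) of tall early, sustained and late pairs that overlapped each list of another library, with exact 95% binomial intervals (counting error). H3K4me3 at 4 h was at 63.3% of early and 32.5% of late pairs, whereas Pol II at 0 h was at 58.7% of early and 72.5% of late pairs. Sustained pairs were above both classes, at 79.1% for H3K4me3 at 4 h and 84.7% for Pol II at 0 h.

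Over all pairs the differences in these marks were smaller. H3K4me3 of 4 h was at 29.2% (27.9 to 30.5) of the 4754 early and 22.9% (21.6 to 24.2) of the 4208 late pairs, a matched difference of -7.15 points (-8.92 to -5.38). Jmjd3 was at 3.03% (2.56 to 3.56) of early and 0.903% (0.640 to 1.24) of late pairs, a matched difference of -2.33 points (-2.92 to -1.75). For H3K27me3 of 0 h the matched difference was -2.87 points (-3.61 to -2.13) and for that of 4 h -2.44 points (-3.21 to -1.66). Limited to pairs whose counting intervals lay apart, the Jmjd3 difference was -9.19 points, that of H3K4me3 at 4 h -27.5 points and that of H3K27me3 at 0 h -4.71 points. For Jmjd3, H3K4me3 and H3K27me3 the differences between early and late were thus larger among tall pairs, and among pairs with counting intervals apart, than over all pairs. Of the pairs with intervals apart, 517 of 733 early and 625 of 765 late ones were tall, so the groups largely overlap.

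Among tall pairs, late ones were more frequent away from H3K4me3 clusters. Of those inside a 4 h cluster, 366 of 11957 (3.06%, 2.76 to 3.39) were early and 223 (1.87%, 1.63 to 2.12) late. Of those over 50 kb from any cluster, 26 of 444 (5.86%, 3.86 to 8.46) were early and 77 (17.3%, 13.9 to 21.2) late. The late share was 10.9% under 2 kb from a cluster, 11.3% at 2 to 10 kb and 13.25% at 10 to 50 kb, while the early share stayed between 5.48% and 6.17% in these bins. Over all pairs both shares were larger away from clusters, with 7.79% early and 5.375% late inside against 17.8% and 18.45% over 50 kb away. Pairs inside clusters were also taller, with a median mean rank of 87.9 against 76.5 over 50 kb away. At a mean rank of 70 to 80, 88 of 2546 pairs inside clusters were early (3.46%, 2.78 to 4.24) and 42 late (1.65%, 1.19 to 2.22), against 30 (1.43%, 0.967 to 2.04) and 87 (4.15%, 3.33 to 5.09) of 2098 pairs outside. At a mean rank of 60 to 70 the late shares inside and outside, 8.44% (7.19 to 9.83) and 9.59% (8.51 to 10.8), had overlapping intervals, and the early shares, 14.1% (12.5 to 15.8) and 6.16% (5.29 to 7.13), did not. At a mean rank of 80 to 90 the pairs inside were 15 early and 15 late of 4170, and those outside 6 early and 15 late of 1001. At 50 to 60 they were 23.4% (21.1 to 25.8) early and 13.8% (11.96 to 15.8) late inside, and 15.3% (14.0 to 16.6) and 15.8% (14.5 to 17.1) outside. Early pairs thus outnumbered late ones inside clusters in the bands from 50 to 80 and not from 80 to 90. Outside, late pairs exceeded early ones beyond their intervals at 60 to 70 and at 70 to 80 alone. Over all pairs the median difference moved little with distance, from -0.54 points inside to -0.14 over 50 kb away, where it was 0.73 with ranks taken among paired positions only.

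**Figure D4:**
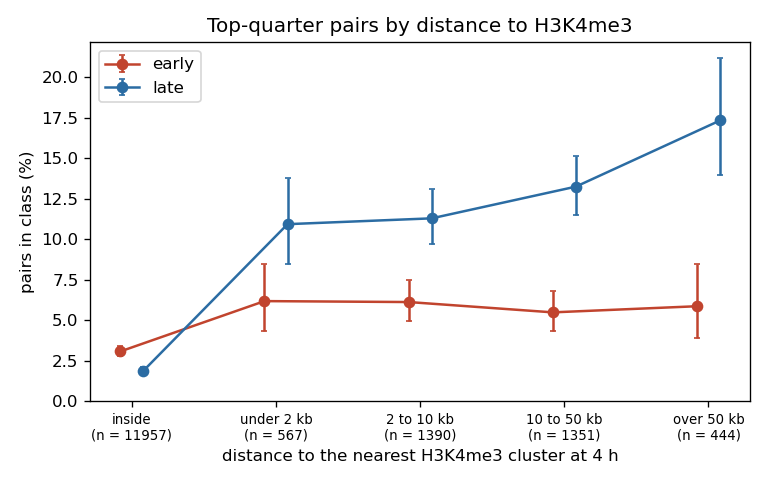
Share (%) of tall pairs that were early or late by distance to the nearest H3K4me3 cluster of 4 h, with exact 95% binomial intervals (counting error). The late share goes from 1.87% inside clusters to 17.3% over 50 kb away, and the early share stays between 3.06% and 6.17%.

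Untreated cells showed how often early and late pairs already had a listed Pol II position, and at what rank. Late pairs had a Pol II position at 0 h more often than early pairs, 2421 of 4208 (57.5%, 56.0 to 59.0) against 2023 of 4754 (42.6%, 41.1 to 44.0), and the matched difference was 14.6 points (Wald, 12.6 to 16.7). On 7 chromosomes the 0 h list stops over 1 Mb before the others, and without those ends the difference was 15.7 points. Sustained pairs had a 0 h position more often than either class, at 67.1% (66.6 to 67.7), with the ends kept and without matching for rank. Among tall pairs the shares were 58.7% of early, 72.5% of late and 84.7% of sustained pairs. The tall late pairs with a 0 h position had median ranks of 78.3, 48.8 and 80.7 at 0, 2 and 4 h. The tall early pairs with one had medians of 69.0, 79.8 and 51.4.

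Most tall late pairs with a 0 h position were lower at 2 h than before stimulation. Of the 507 tall late pairs listed at 0 h, 330 (65.1%, 60.8 to 69.2) ranked at least 20 points higher at 0 h than at 2 h, and 125 (24.65%, 21.0 to 28.65) ranked at least 20 points lower at 0 h than at 4 h. Of the 344 tall early pairs listed at 0 h, 158 (45.9%, 40.6 to 51.4) ranked at least 20 points higher at 0 h than at 4 h, their low time, and 133 (38.7%, 33.5 to 44.0) at least 20 points lower at 0 h than at 2 h. The share whose 0 h rank was at least 20 points above that of the low time was 19.2 points larger in late than in early pairs (Wald, 12.45 to 25.9). The share whose 0 h rank was at least 20 points below that of the high time was 14.0 points smaller in late than in early pairs (late minus early -14.0, Wald -20.4 to -7.64). The low time also chose the class, so each share alone is partly set by the rule. The low ranks of late pairs all come from the 2 h library, and the part of that library in these values was not tested.

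Early and late pairs came in runs along the chromosome. Within stretches of positions at most 2 kb apart, called loci, an early pair was followed by an early pair in 1029 of 2616 cases (39.3%, 37.5 to 41.2) and by a late pair in 82 (3.13%, 2.50 to 3.88). A late pair was followed by a late pair in 1020 of 2513 cases (40.6%, 38.7 to 42.5) and by an early pair in 81 (3.22%, 2.57 to 3.99). Whatever the class of the first pair, the next was early in 13.05% and late in 12.4% of cases. Positions within a list lay at least 501 bp apart at 2 h and 502 bp at 4 h, and fragments were selected at about 200 to 300 bp, per the labels' protocols.

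Of 30444 loci, 1454 held at least 5 pairs. Taking the median difference of a locus and the same limit of 20 points, 92 loci (6.33%) were early and 99 (6.81%) late. In 82 of the early loci no pair was late, and in 97 of the late loci no pair was early. These counts are partly set by the call, which used the median of the same pairs. The like share over all 1454 loci is not given here. Numbers of listed positions come from the same lists that called the loci and are a description. In 75 of the 92 early loci more positions were listed at 2 h than at 4 h, and in 92 of the 99 late loci more at 4 h than at 2 h. The early loci held 435 positions at 0 h, 1484 at 2 h and 1077 at 4 h, and the late loci 1058, 1142 and 1849. Late loci had a median rank of 55.6 at 0 h, 31.3 at 2 h and 58.35 at 4 h, taking the median over loci. The 0 h medians cover loci with a 0 h position, 86 of the 99 late and 72 of the 92 early. Of the 86 late ones, 47 stood at least 20 points higher at 0 h than at 2 h and 6 as far below. Early loci had medians of 33.9, 54.2 and 28.4. Of the 72 early ones, 36 stood at least 20 points lower at 0 h than at 2 h and 10 as far above. Among the other 1263 loci of at least 5 pairs, 1128 had a 0 h position. At 0 h 268 of these stood at least 20 points lower than at 2 h and 160 as far above. The 2 h ranks also called the loci.

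The leading early locus spanned 173106937 to 173114501 on chromosome 1, 7.56 kb with 5 pairs and a median difference of -47.5 points. Its tallest pair, at 173107040 and 173106937, inside an H3K4me3 cluster, had heights of 67, 169 and 103 at 0, 2 and 4 h and was sustained. The next pair, at 173108817 and 173108742 and in a cluster too, had heights of 9, 57 and 12. Further along, outside the cluster, the pairs at 173112427 and 173112356 and at 173113007 and 173113015 went from 26 to 11 and from 23 to 12 and had no 0 h position. The last pair, at 173113913 and 173113910, had heights of 12, 49 and 20. At this locus 1 of the 5 pairs thus stayed tall at 4 h and the others were at rank 51.4 or below. One Jmjd3 peak lay in it and no H3K27me3 peak.

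The other early loci of the first 5 differed in length and in marks. The locus at 109309235 to 109333493 on chromosome 12 held 1 position at 0 h, 22 at 2 h and 6 at 4 h, with highest heights of 10, 42 and 14, and all of its 6 pairs were early. No H3K4me3 cluster lay in it at either time. On chromosome 11, 68247315 to 68316608 was the longest of the 5 at 69.3 kb, with 33 positions at 0 h, 58 at 2 h and 35 at 4 h. Of its 29 pairs 26 were early, and their median height was 31 at 2 h and 14 at 4 h; it held 2 Jmjd3 peaks and 2 H3K4me3 clusters. On chromosome 13, 43803523 to 43821011 had no position in untreated cells, 17 at 2 h and 8 at 4 h, no H3K4me3 cluster, and 1 H3K27me3 peak at 0 h and 3 at 4 h. The fifth was at 140046350 to 140058755 on chromosome 5, where 5 of 8 pairs were early and the highest height was 27, 83 and 43 at the 3 times. The 4 loci of these 5 that were listed in untreated cells had median ranks of at most 39.9 there.

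**Figure D5:**
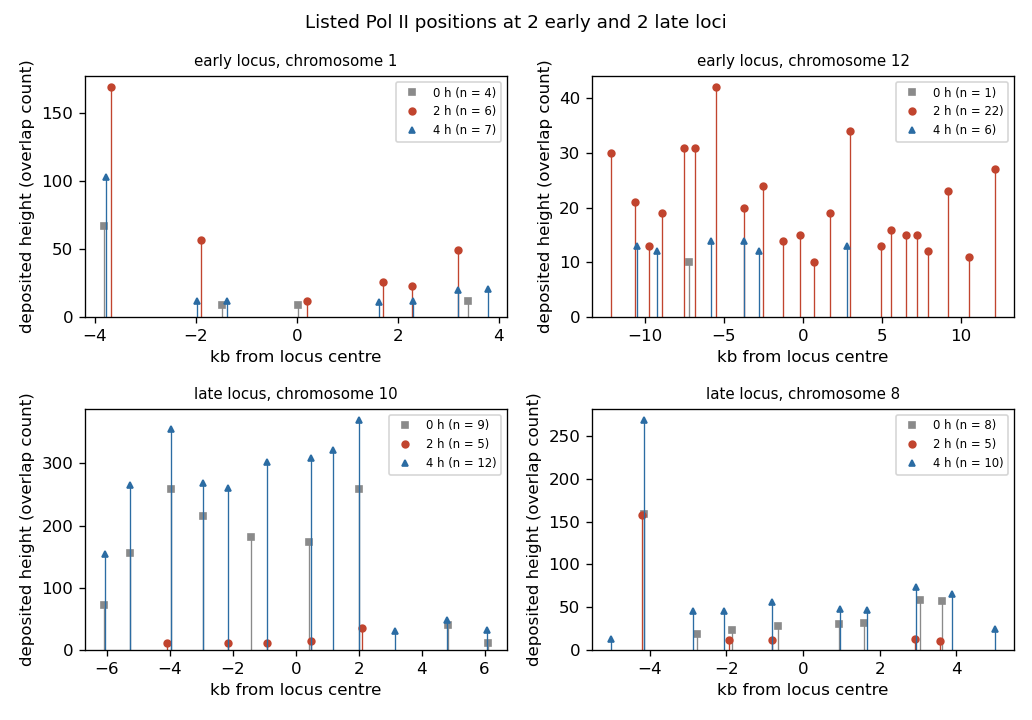
Deposited heights of all listed Pol II positions at 0, 2 and 4 h against distance from the locus centre (kb), for the first 2 early loci (chromosomes 1 and 12) and the first 2 late loci (chromosomes 10 and 8). At the chromosome 10 locus the 5 positions of 2 h reach 35 at most, while those of 0 h reach 259 and those of 4 h 369.

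The leading late locus, 116678159 to 116690292 on chromosome 10, was tall in untreated cells, low at 2 h and tall again at 4 h. It held 9 positions at 0 h with heights of 12 to 259, 5 at 2 h with heights of 11 to 35 and 12 at 4 h with heights of 31 to 369. The pair at 116686342 and 116686239 had heights of 259, 35 and 369, and that at 116684724 and 116684725 had 173, 15 and 309. All 5 of its pairs were late, with differences of 26.5 to 83.6 points. An H3K4me3 cluster overlapped the locus at 0 h and at 4 h, and no Jmjd3 or H3K27me3 peak did. The tallest 4 h position with no 2 h position within 5 kb, 116654612 on the same chromosome, lay 25.5 kb from the nearest 2 h position and had a height of 165 at 4 h. Its counterpart in untreated cells, 32 bp away, had a height of 96.

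At the second late locus, 77988926 to 77998927 on chromosome 8, 1 tall end was kept at all times. The highest heights were 159 at 0 h, 158 at 2 h and 268 at 4 h, but the median height over its positions was 31, 12 and 47.5, and 4 of its 5 pairs were late. The locus at 72069337 to 72095507 on chromosome 6 held 17, 14 and 22 positions with highest heights of 65, 24 and 101, and all of its 13 pairs were late. On chromosome 10, 8474318 to 8484216 held 11, 5 and 10 positions with highest heights of 23, 12 and 40 and no H3K4me3 cluster. The fifth, 74160265 to 74185104 on chromosome 7, differed from the other four in having no position in untreated cells. It held 6 at 2 h, of height 10 to 18, and 20 at 4 h, of height 13 to 38. Of these 5 late loci 1 held a Jmjd3 peak, on chromosome 8, and none an H3K27me3 peak. Over all 99 late loci the shares were 19.2% for Jmjd3 and 8.08% and 6.06% for H3K27me3 at 0 and 4 h.

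Loci with the most pairs, chosen after their values were seen, showed the 2 patterns over longer stretches. On chromosome 3, 109084996 to 109155629, 70.6 kb, held 44 pairs of which 32 were late and none early, with 1 listed position in untreated cells, 51 at 2 h and 58 at 4 h. The median height of its pairs was 19 at 2 h and 46 at 4 h. On chromosome 4, 134477470 to 134522686, 45.2 kb, held 34 pairs of which 21 were early and 1 late, with a median height of 41 at 2 h and 21 at 4 h. It had 10 positions in untreated cells, none above a height of 19. Both loci had more listed positions at 2 h than at 0 h, and they differed in which of the later times was the taller.

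Loci that held pairs both inside and outside a 4 h H3K4me3 cluster are given as a description, since they were called on the median of these same pairs, most of which lay outside. In the 43 such early loci, the pairs outside had the more negative median difference in 31, and the medians were -20.55 points over 132 pairs inside and -28.4 over 339 outside. In the 50 late loci the pairs outside were the more positive in 35, with medians of 22.4 points over 222 pairs inside and 29.8 over 399 outside. Pairs inside clusters also ranked higher, with medians of 73.5 and 48.7 at 2 and 4 h against 65.9 and 33.6 outside in early loci, and 48.8 and 76.8 against 31.3 and 68.0 in late loci. Over whole loci, where a peak anywhere in the locus counted, the marks of early and late loci were not told apart. The intervals rest on 92 and 99 loci and are wide. A mark anywhere in a locus is also not the measure scored at single pairs. A Jmjd3 peak lay in 26 of 92 early loci (28.3%, 19.4 to 38.6) and 19 of 99 late ones (19.2%, 11.97 to 28.3), a difference of -9.07 points (Wald, -21.1 to 2.97). An H3K4me3 cluster of 4 h lay in 48.9% (38.3 to 59.6) of early and 53.5% (43.2 to 63.6) of late loci, a difference of 4.62 points (-9.55 to 18.8). That interval held the matched difference over all pairs (-7.15 points) but not that of tall pairs (-30.1). The Jmjd3 interval held both of its matched differences (-2.33 and -10.6). Jmjd3 was in 39.6% (36.9 to 42.3) of the other 1263 loci with 5 or more pairs.

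Positions without a partner were low, and most of them were near a position of the other time. Of the 2 h positions 18746 (32.8%, 32.4 to 33.2) had no partner, and of the 4 h positions 19059 (33.1%, 32.8 to 33.5). Those with no position of the other time within 5 kb, called isolated, numbered 5653 at 2 h (9.88%, 9.64 to 10.1) and 4719 at 4 h (8.21%, 7.98 to 8.43). Their median heights were 11 and 13, against 24 and 26 for paired positions, and 18 of the isolated 2 h and 25 of the isolated 4 h positions were at rank 75 or above. The unpaired but not isolated positions had medians of 13 at 2 h and 14 at 4 h. Of these, 659 of 13093 at 2 h (5.03%) and 895 of 14340 at 4 h (6.24%) were at rank 75 or above, with heights up to 350 and 390. Among paired positions those shares were 35.5% and 35.0%. Tall positions without a partner are in none of the early, sustained and late classes. A position without a partner was therefore seldom tall.

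Isolated 4 h positions had been listed in untreated cells more often than isolated 2 h ones, as late pairs had been more often than early ones. Pol II at 0 h overlapped 1874 of the isolated 4 h positions (39.7%, 38.3 to 41.1) and 1083 of the isolated 2 h positions (19.2%, 18.1 to 20.2). At like rank and without the chromosome ends, the shares were 63.1% (58.5 to 67.5) and 30.6% (26.0 to 35.4) at ranks of 50 to 75, and 48.8% (46.1 to 51.5) and 23.0% (20.9 to 25.3) at ranks of 25 to 50. H3K27me3 of 4 h showed the opposite order. It overlapped 6.10% (5.49 to 6.76) of the isolated 2 h and 2.67% (2.23 to 3.17) of the isolated 4 h positions, and 11.4% (8.41 to 15.0) against 2.82% (1.51 to 4.77) at ranks of 50 to 75.

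The tallest isolated positions were few enough to give singly. At 2 h they were 69404855 on chromosome 8 (height 54), 57320550 on chromosome 10 (46), 17423588 on chromosome 19 (43), 139649352 on chromosome 5 (42) and 146709117 on chromosome 6 (42). The second lay 95.85 kb from any 4 h position, with H3K4me3 and H3K27me3 of both times, and the third and the fourth were at Pol II positions of untreated cells of height 45 and 51. At 4 h the tallest after that on chromosome 10 were 122299106 on chromosome 1 (120), 46274221 on chromosome 14 (74), 122301493 on chromosome 1 (63) and 87744909 on chromosome 6 (62). Of these the chromosome 14 position was at a 0 h position of height 47, and the chromosome 1 positions, which are neighbours, lay 61.3 and 58.9 kb from any. No Jmjd3 peak overlapped any of these 10 positions. Over all isolated positions it overlapped 71 of 5653 at 2 h (1.26%) and 28 of 4719 at 4 h (0.593%), so none in 10 does not set these apart.

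By chromosome, the median difference in rank ran from -1.87 points on chromosome 15 to 0.257 on chromosome 13, leaving out mitochondrial DNA with its 1 pair. Early pairs were between 10.7% and 17.55% of the pairs of a chromosome, highest on chromosome 18, and late pairs between 8.47% on chromosome 9 and 15.9% on chromosome 10. Each chromosome held early and late pairs, so neither class was confined to a few of them.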

How the data were processed

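Peak lists of ChIP-seq libraries were used as deposited, 1 library for each group. The authors deposited 1 value per peak, a whole-number overlap count, which is a signal not scaled to depth or control as far as file headers and labels say. Each library had over 10000000 uniquely mapped tags and was made from 100000000 cells (500000000 for Jmjd3), per the labels' protocols. Exact depths were unknown. Coordinates are on mm8, a build named in the submitters' processing notes. The aligner, the peak caller, its threshold and any control are not stated there. Per the file headers, H3K4me3 lists hold intervals and all others single positions.

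Positions of 2 and 4 h were paired as mutual nearest neighbours under 500 bp apart. Heights were ranked within each list with mid-ranks. A mark was scored at the 2 h position of a pair, with windows of 250 bp to each side. Matching weighted early pairs to 10 classes of the late pairs' mean rank. Loci were chained at gaps of at most 2 kb. Named were the 10 tall pairs with the largest difference each way, the 10 of highest mean rank, the 5 loci of at least 5 pairs with the largest median difference each way (median higher rank of at least 50) and the 5 tallest isolated positions of each time. Members, rules and limits were chosen with earlier results of these data known. The comparison of pairs inside and outside clusters of a locus, runs of neighbouring pairs, shares by 0 h rank, bins at like rank and counting intervals were added after seeing the data. Planned gene lists were not run, since the gene table at hand is on another build.

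Tools were scipy 1.17.1, pandas 2.3.3, numpy 2.4.6 and matplotlib 3.10.9 under Python 3.11.15. Pairing and classing were tested on simulated lists.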

Additional observations from a re-analysis of the deposited data

How the results depend on the processing

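No paired analysis was possible because each group has 1 library. All 108 mark differences kept their sign. The median difference over 50 kb from clusters, not told apart from 0, went from -0.14 to 0.73 with ranks among paired positions. The order of early and late counts turned at a common lowest height (3201 and 4999), with ranks among paired positions (4168 and 4234), with counting intervals apart, for tall pairs at 10 points, and for loci at gaps of 1 and 5 kb (80 and 72 at 5 kb) and with at least 3 pairs. The 2 h and 4 h positions without a partner were 40.5% and 40.8% at an overlap of at least 50%, 29.8% and 30.2% within 1 kb, 28.1% and 36.8% at a common lowest height, and 26.0% and 26.8% above the median height. Early and late pairs numbered 2278 and 2026 above the median height, 9388 and 7771 at 10 points, 2442 and 2125 at 30 points, and 733 and 765 with counting intervals apart. Tall early and late pairs numbered 317 and 454 with ranks among paired positions only, 1722 and 1675 at 10 points, 250 and 360 at 30 points, and 31 and 62 with the tall limit at rank 90. With counting intervals apart the differences over all pairs, late minus early, were -9.19 (Jmjd3), -22.4 and -27.5 (H3K4me3 at 0 and 4 h), -4.71 and -4.06 (H3K27me3) and 17.8 points (Pol II at 0 h). With ranks among paired positions they were -3.42 (Jmjd3), -9.66 and -10.7 (H3K4me3) and -3.67 (H3K27me3 at 0 h), and for tall pairs -19.7 (Jmjd3), -31.7 and -37.2 (H3K4me3). H3K27me3 at 4 h within 1 kb gave -3.22, Pol II at 0 h with 30 points 17.15, and 1 tall pair per locus -35.4 and -40.2 (H3K4me3 at 0 and 4 h). Early and late loci numbered 19 and 18 at a gap of 1 kb and 224 and 195 with at least 3 pairs. Isolated positions of 2 and 4 h numbered 9270 and 8403 at 2 kb and 2194 and 1685 at 20 kb. The cause of these moves was not tested, beyond the fewer or more positions that each setting admits by construction. Depth of the libraries is unknown, and low heights limit all statements on low positions.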
